A study of Rattus norvegicus with 288 samples.

Results

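Sorafenib was given to rats by mouth and the liver was read 6 h later on Affymetrix rat genome arrays, which report the abundance of each transcript as a log2 signal. The comparison was chosen by the sample labels alone: liver at 6 h, sorafenib against its own oral vehicle, F68/PG/PEG400. It took 16 of the 288 arrays of the series, 8 from sorafenib rats and 8 from F68/PG/PEG400 rats, each array from a different animal. All were male Sprague-Dawley rats aged 7 to 8 weeks. In each oral arm, 4 rats had first received temsirolimus (0.3 mg/kg iv), which inhibits mTOR, a kinase of cell growth, and the other 4 its vehicle (TEM_vehicle), so temsirolimus was present equally on both sides. Sorafenib was given at 25 mg/kg. The rest of the series held bone marrow and heart of the same rats, the times 1 and 24 h, and rats given sunitinib at 5 mg/kg or its vehicle, sterile water, 4 rats per treatment and time.

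Sorafenib blocks several kinases: the RAF kinases, which pass signals from growth factor receptors to ERK, and the receptors for VEGF and PDGF together with KIT, FLT3 and RET. In the liver, VEGF made by hepatocytes acts on the sinusoidal endothelial cells, which line the capillaries, scavenge waste from the blood, and send signals such as BMP2 back to the hepatocytes. The liver also keeps a circadian clock, in which CLOCK and BMAL1 switch on Per, Nr1d1, Dbp and Tef from a DNA element called the E-box, and the products of Per and Nr1d1 act back on that drive. Most of the RNA in a piece of liver comes from hepatocytes, and a fall in an endothelial transcript can come from fewer such cells or from less RNA per cell, which cannot be told apart here.

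The tissue carried its label: hepatocyte markers averaged 14.35 to 14.50 in sorafenib livers and 14.39 to 14.46 in F68/PG/PEG400 livers, where the same probe sets averaged 5.68 to 6.76 in the hearts of 12 of these rats and 9.43 to 10.65 in those of the other 4. One array stood apart. Rat 4M46, given temsirolimus and then F68/PG/PEG400, lay at 34.01 on the first principal component of the 16 arrays, which held 18.6% of the variance, while the other 15 lay between -12.5 and 6.87. Its Kupffer cell and macrophage markers averaged 11.43, against 9.95 to 10.39 in sorafenib rats and 9.98 to 10.30 in the other F68/PG/PEG400 rats, and its T and NK cell markers averaged 7.52, against 6.26 to 6.55 in sorafenib rats and 6.44 to 6.59 in the other F68/PG/PEG400 rats. The counts of called genes in the gene lists are also given without this rat where they changed. The mean of the endothelial markers lay at 8.26 to 8.47 in sorafenib rats and 8.30 to 8.59 in F68/PG/PEG400 rats, so the groups overlapped. The highest 3′:5′ signal ratio, a measure of RNA breakdown, was 2.81 for Actb, in sorafenib rat 6M64, with 1.73 to 2.06 in the others.

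Sorafenib changed 101 of 14218 genes (0.71% of all genes tested; limma, adjusted p under 0.05), of which 61 rose (0.429%) and 40 fell (0.281%). The changes were modest. Their median size was 0.44 on the log2 scale, 24 genes reached a fold of 1.5 in either direction, and the median change over all genes was -0.003. In 28 of the 101 genes all 8 sorafenib rats lay on one side of all 8 F68/PG/PEG400 rats, 14 above and 14 below, where 0.309% of all genes showed such a gap (0.148% above and 0.162% below). An unadjusted p under 0.05 was found for 1956 genes. The number called rested on single rats: it was 57 without 6M70, 60 without 8M93, 64 without 4M45, 67 without 4M39 and 169 without 6M69.

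**Figure D1:**
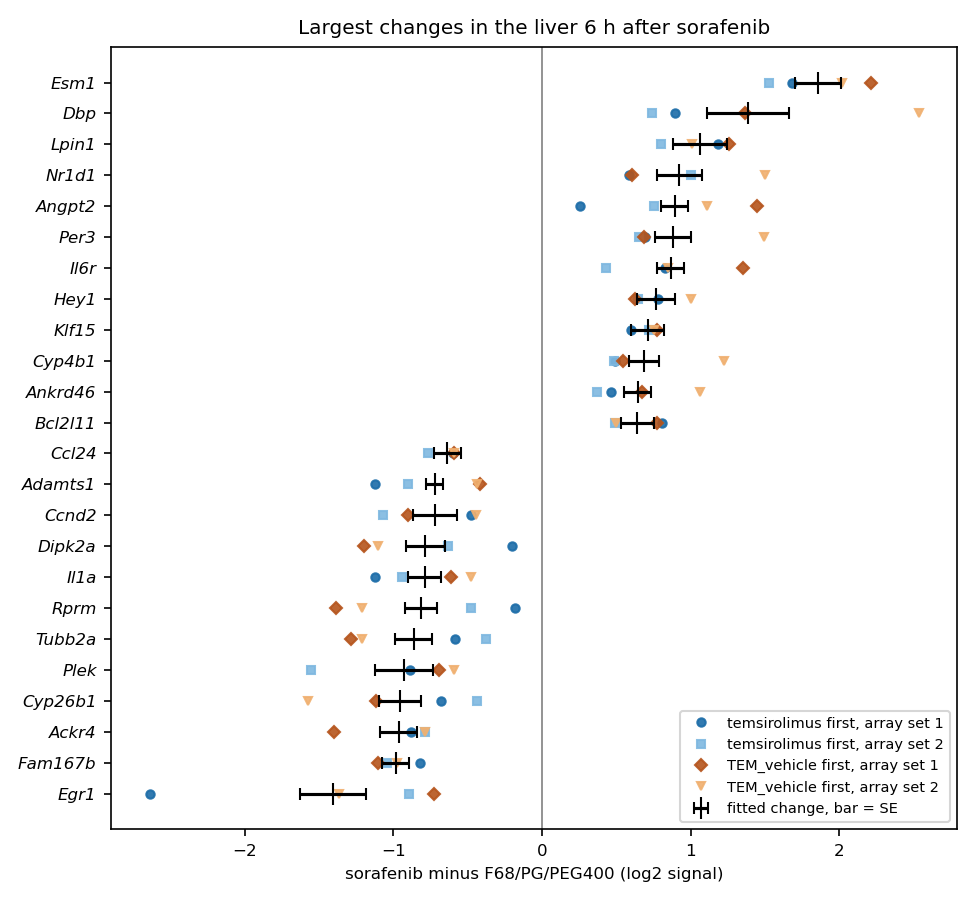
The 12 genes that rose most and the 12 that fell most 6 h after sorafenib, with the sorafenib minus F68/PG/PEG400 difference in log2 signal on the horizontal axis. Coloured points are the differences within each of the 4 combinations of first agent and array set (2 rats against 2), and the black mark is the fitted change with its SE; Esm1 at 1.86 is the largest rise and Egr1 at -1.40 the largest fall.

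The largest rise was in Esm1, which encodes endocan, a proteoglycan secreted by endothelial cells. Its log2 signal had a lowest, median and highest value of 6.52, 7.11 and 7.42 in sorafenib rats and 4.70, 4.98 and 5.85 in F68/PG/PEG400 rats. Every sorafenib rat was above every vehicle rat, and the fitted change was 1.86 ± 0.155 (SE, 8 rats each), a 3.63-fold rise (limma adjusted p = 3.78e-05). Angpt2, the endothelial ligand that opposes angiopoietin 1 at the receptor TIE2, gave 6.34, 6.97 and 7.48 with sorafenib and 5.76, 5.94 and 6.22 with F68/PG/PEG400, again without overlap, and rose by 0.89 ± 0.0934 (adjusted p = 0.000362). Hey1, a repressor switched on by Notch in vessels, gave 7.73, 8.13 and 8.63 against 7.11, 7.34 and 7.73, a rise of 0.76 ± 0.127 (adjusted p = 0.0098). The endothelial transcription factor Sox18 rose by 0.46 (adjusted p = 0.0226).

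Other genes of the vessel wall fell. Adamts1, a secreted protease that cuts the matrix proteoglycan versican and binds VEGF, gave 7.79, 7.91 and 8.05 in sorafenib rats and 8.24, 8.62 and 9.14 in F68/PG/PEG400 rats. The ranges were apart, and the change of -0.72 ± 0.0562 had the smallest adjusted p of all genes (3.1e-05). Nrp2, a co-receptor for VEGF, gave 6.89, 6.99 and 7.15 against 7.34, 7.49 and 8.23 and fell by 0.56 (adjusted p = 0.0144). Its other probe set, at a mean signal of 5.29, changed by -0.06. Bmp2, the signal from sinusoidal endothelium that sets hepcidin in hepatocytes, gave 8.33, 8.62 and 8.72 against 9.01, 9.12 and 9.28, also without overlap, and fell by 0.57 ± 0.0699 (adjusted p = 0.00156). Lyve1, a hyaluronan receptor of sinusoidal and lymphatic endothelium, gave 10.40, 10.67 and 10.95 against 11.03, 11.12 and 11.39 and fell by 0.50 (adjusted p = 0.00375). Stab2, the scavenger receptor of the same cells, was lower by 0.32 and did not pass (adjusted p = 0.0565).

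**Figure D2:**
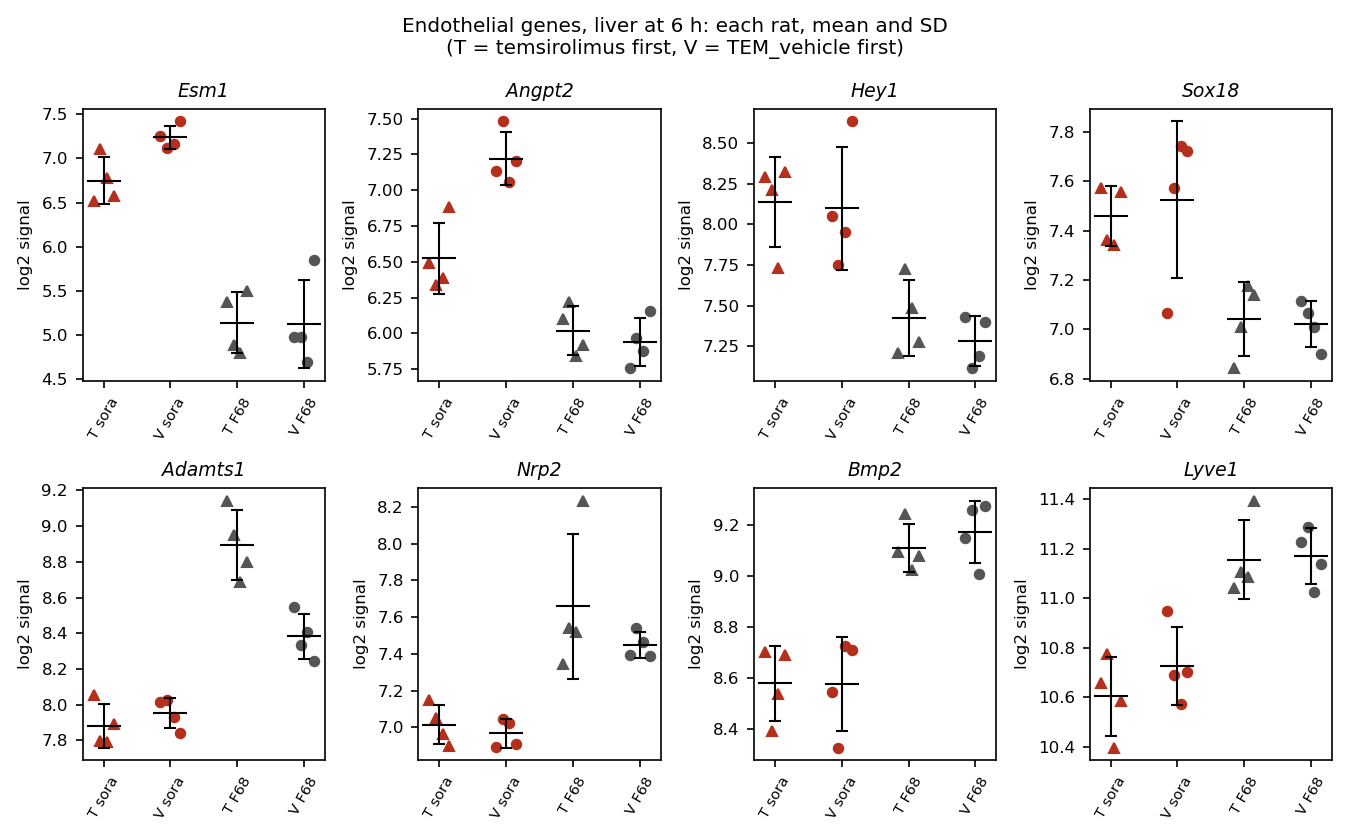
Log2 signal of endothelial genes in each rat at 6 h, 4 rats per group, with the oral agent and the first agent (T, temsirolimus; V, TEM_vehicle) on the horizontal axis and the mean and SD of each group in black. Esm1 and Angpt2 are higher, and Adamts1, Bmp2 and Lyve1 lower, in the sorafenib rats than in the F68/PG/PEG400 rats after either first agent.

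Of 30 measured genes known to answer to VEGF, 3 rose (Esm1, Angpt2, Hey1) and 3 fell (Adamts1, Nrp2, Tnfrsf12a), with a median change of -0.02 beside -0.003 over all genes; without rat 4M46, 3 rose and 2 fell, and Tnfrsf12a did not pass. Over all genes 0.429% rose and 0.281% fell. Among 28 endothelial markers 1 rose (Sox18) and 1 fell (Lyve1), and among 13 signals that endothelium sends to hepatocytes 1 rose (Angpt2) and 1 fell (Bmp2). Of the kinases that sorafenib blocks, 11 were measured (Araf, Kdr, Flt1, Flt4, Pdgfra, Pdgfrb, Kit, Flt3, Ret, Fgfr1 and Csf1r) and none passed; their changes lay between -0.21 (Kit) and 0.15 (Araf), with a median of -0.058. Kdr, the main VEGF receptor of endothelium, was lower by 0.15 (adjusted p = 0.183).

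The largest fall was in Egr1, the immediate early transcription factor that ERK signalling switches on through serum response factor at CArG boxes. The 250 bases before its start in RefSeq (GRCr8, chr18:26736828-26737077, plus strand) are shown because Egr1 is the gene that moved farthest down, with its CArG boxes in capitals.
Egr1: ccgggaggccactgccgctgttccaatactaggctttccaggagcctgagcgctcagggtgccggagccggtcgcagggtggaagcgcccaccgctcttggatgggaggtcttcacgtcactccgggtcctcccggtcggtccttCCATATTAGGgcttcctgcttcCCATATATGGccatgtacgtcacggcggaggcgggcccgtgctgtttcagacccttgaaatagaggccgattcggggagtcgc
The window held 2 CArG boxes, beginning at -105 and -83 from the start. Among the windows of 27457 genes, 7 held at least as many and 1.62% held one or more. Such a box was found before 0 of 49 genes that rose and 1 of 35 that fell, which was Egr1 itself.

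Egr1 gave 7.60, 8.13 and 8.75 in sorafenib rats and 8.68, 9.42 and 10.59 in F68/PG/PEG400 rats. The ranges met only at their ends, and the change was -1.40 ± 0.220, or 0.378 of the vehicle level (adjusted p = 0.00728). Of 29 measured genes known to be induced through ERK it was the only one that passed, where 0.71% of all genes did. The median change of that list was -0.07. Without rat 4M46, 2 of the 29 fell, Egr1 and Jun, a subunit of the factor AP-1, where 44 of all 14218 genes did. Among 11 genes for D cyclins, their inhibitors and Rb1, 2 fell, where 0.281% of all genes did. Ccnd2, which encodes cyclin D2, fell by 0.72 (adjusted p = 0.0368) and Rb1, the retinoblastoma protein that D cyclins act on, by 0.49 (adjusted p = 0.00724). Ccnd2 did not pass when any one of rats 2M15, 2M16, 2M22, 8M87, 8M93, 8M94, 4M39, 6M63 and 6M70 was left out. No gene of 27 that mark dividing cells passed, which is the usual count for a list of this size, and their median was -0.20.

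Genes with other roles were also among the largest rises. Il6r, the receptor for IL-6, gave 10.64, 11.24 and 11.58 in sorafenib rats and 10.07, 10.24 and 10.68 in F68/PG/PEG400 rats. The ranges nearly parted, with a rise of 0.87 ± 0.0917 (adjusted p = 0.000362). Lpin1, a phosphatidate phosphatase that also acts as a co-activator of fatty acid oxidation genes, gave 11.03, 12.01 and 12.67 against 10.46, 10.70 and 11.43 and rose by 1.06 ± 0.183 (adjusted p = 0.0121). Klf15, a transcription factor of amino acid breakdown and gluconeogenesis, gave 10.23, 10.75 and 11.02 against 9.68, 10.08 and 10.46 and rose by 0.71 (adjusted p = 0.00724). Its other probe sets changed by 0.64 and -0.06. Klf15 and Klf9, another transcription factor of this family, which glucocorticoids induce (0.46, adjusted p = 0.0358), were the genes that passed among 25 measured for fasting, insulin and FOXO1. Both rose, where 0.429% of all genes did. Without rat 4M46, Klf15 alone passed. Smaller rises were those of Cyp4b1, a cytochrome P450 (0.69, adjusted p = 0.00495), Ankrd46 (0.64, adjusted p = 0.00403), Bcl2l11, which encodes the pro-apoptotic protein BIM (0.64, adjusted p = 0.0104), and Nr1i2, the xenobiotic receptor PXR (0.35, adjusted p = 0.0141). Other probe sets of Klf9 changed by 0.41 and 0.02, and those of Bcl2l11, of lower mean signal, by 0.02 and 0.03. Of 21 genes governed by PXR or its relative CAR, Nr1i2 was the only one that passed, where 0.71% of all genes did.

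Among the largest falls was Fam167b, with 8.13, 8.40 and 8.65 in sorafenib rats and 9.03, 9.36 and 9.76 in F68/PG/PEG400 rats. The groups were well apart (-0.98 ± 0.0904, adjusted p = 9.42e-05). Ackr4, a receptor that removes chemokines without signalling, gave 6.83, 7.56 and 7.84 against 8.07, 8.43 and 8.93 and fell by 0.96 (adjusted p = 0.00188). Cyp26b1, which breaks down retinoic acid, gave 5.34, 5.61 and 5.82 against 6.13, 6.39 and 7.49 on the probe set used (-0.95, adjusted p = 0.00526). Its other probe set, which had the higher mean signal in these 16 arrays (6.97 against 6.09), differed by -0.12. Lrat, which stores retinol as esters in stellate cells, fell by 0.37 (adjusted p = 0.00975).

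Il1a, an inflammatory cytokine, fell by 0.79 (adjusted p = 0.00375). Ccl24, a chemokine that draws eosinophils, gave 6.48, 6.81 and 6.95 in sorafenib rats and 6.97, 7.42 and 7.57 in F68/PG/PEG400 rats and fell by 0.64 (adjusted p = 0.00375). Plek, a substrate of protein kinase C in blood cells, fell by 0.93 (adjusted p = 0.0402), and it was highest in rat 4M46, the vehicle rat with the high macrophage and T cell markers. It passed without 4M46, and did not pass when any one of rats 2M15, 2M16, 2M21, 8M87, 8M93, 8M94, 4M45, 6M63, 6M64, 6M69 and 6M70 was left out. Rprm, a p53 target that holds cells before mitosis, fell by 0.81 (adjusted p = 0.00219), and Dipk2a by 0.78 (adjusted p = 0.0104). Other probe sets of Dipk2a changed by -0.28 and -0.07. Tubb2a, a beta-tubulin, gave 11.21, 11.64 and 12.26 against 12.17, 12.53 and 12.91 and fell by 0.86 (adjusted p = 0.00403). With Tubb6 (-0.50, adjusted p = 0.0308) it was 1 of 2 falls among 9 tubulins, where 0.281% of all genes fell. The other probe set of Tubb6, at a mean signal of 5.39, changed by -0.08.

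Of 41 lists 27 held no gene that passed. Since 0.71% of all genes passed, 0 is the usual count for lists of this size and says nothing particular of them. They included 22 genes of cholesterol synthesis, 21 of fatty acid synthesis, 18 of bile acid synthesis and transport, 18 of the unfolded protein response, 30 targets of ATF4, 17 of NRF2 and 16 of p53, and 16 hepatocyte markers. Macrophage markers (0 of 16), T and NK cell markers (0 of 16) and interferon-induced genes (0 of 20) had medians of -0.24, -0.28 and -0.24. Without rat 4M46 these medians were -0.09, -0.12 and -0.18 in the same order, and 1 T and NK cell marker fell (Lck, a kinase of the T cell receptor). Without that rat 1 fatty acid synthesis gene rose (Scd2, a desaturase).

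Several clock genes were also among the rises. Per3, a clock repressor, gave 7.63, 7.88 and 8.17 in sorafenib rats and 6.53, 6.97 and 7.60 in F68/PG/PEG400 rats. The ranges just parted, with a rise of 0.88 ± 0.12 (adjusted p = 0.00372). Its other probe set, at a mean signal of 5.07, changed by -0.11. Nr1d1, which encodes the haem-binding repressor REV-ERBα, gave 9.05, 9.36 and 9.87 against 8.01, 8.43 and 8.85, also apart, and rose by 0.92 ± 0.151 (adjusted p = 0.00975). Dbp, an output factor of the clock, gave 9.07, 9.60 and 10.75 against 7.50, 8.36 and 9.53, with overlap, and rose by 1.38 ± 0.274 (adjusted p = 0.0308). Tef, its relative, gave 9.67, 9.96 and 10.37 against 9.19, 9.45 and 9.85 and rose by 0.49 (adjusted p = 0.0118). Bmal1, which runs in the opposite phase, was lower by 0.65 and missed the threshold (adjusted p = 0.0514). Of 18 clock genes 4 rose and none fell, where 0.429% and 0.281% of all genes did, and the median was 0.12. This list was chosen with earlier results of these data known. Per2, among those that did not pass, changed by -0.03 on the probe set used and by 0.75 on its other. Usp2, a deubiquitinase with a daily rhythm in liver, rose by 0.58 (adjusted p = 0.0308). Dbp did not pass when any one of rats 2M16, 2M21, 2M22, 8M88, 8M93, 8M94, 4M39, 4M45, 6M64 and 6M70 was left out (adjusted p up to 0.0686).

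**Figure D3:**
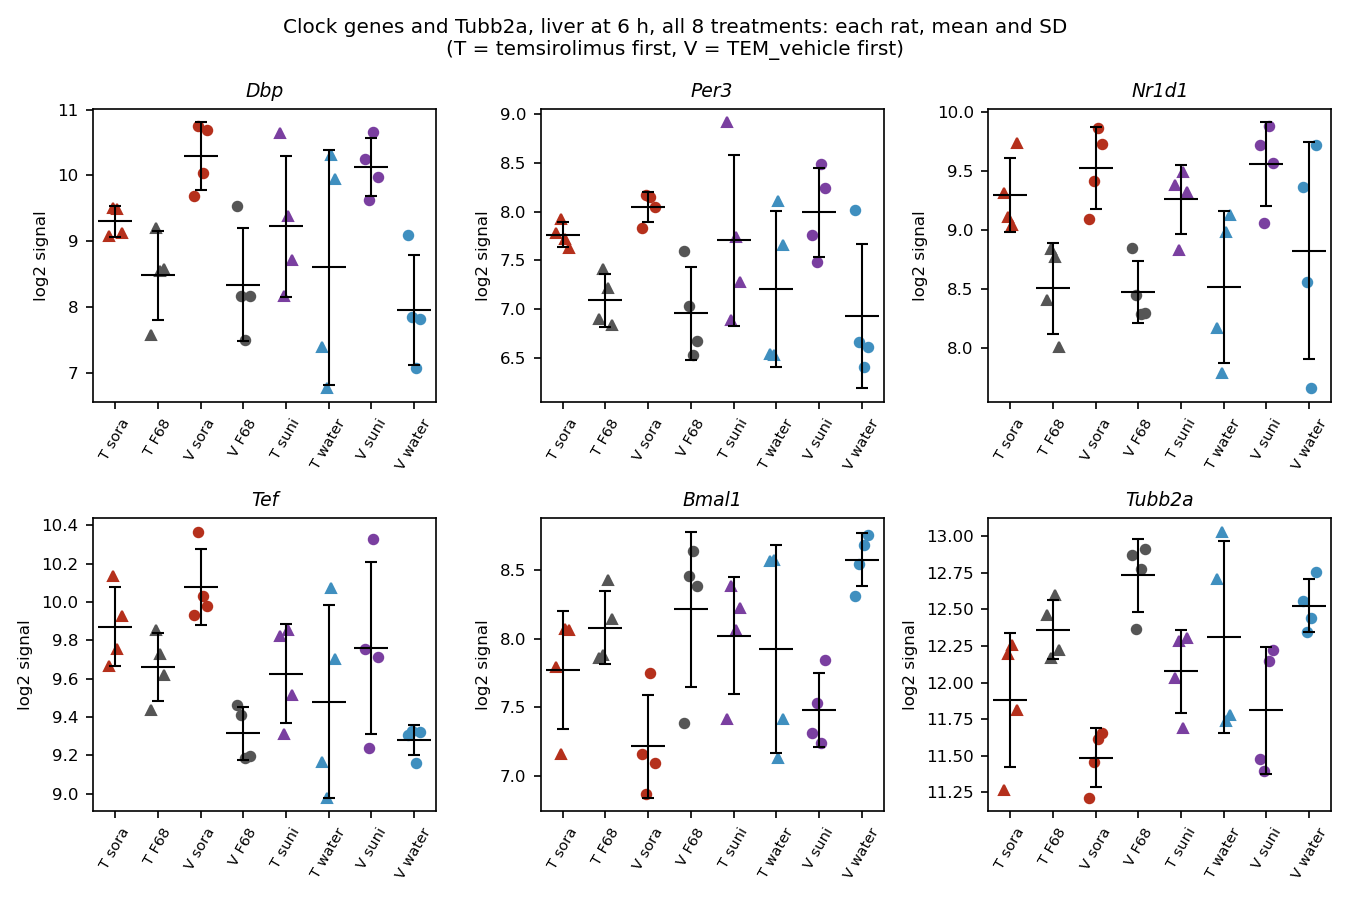
Log2 signal of clock genes and Tubb2a in each rat of the 8 treatment groups at 6 h, 4 rats per group, with the oral agent and the first agent (T, temsirolimus; V, TEM_vehicle) on the horizontal axis and the mean and SD of each group in black. Dbp spans 6.77 to 10.31 within the group given temsirolimus and then sterile water, so that rats given the same treatment span most of the range of all groups.

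At 6 h rats given the same treatment differed widely in these genes. After temsirolimus, Dbp lay between 9.07 and 9.51 with sorafenib and between 7.58 and 9.21 with F68/PG/PEG400. After TEM_vehicle it lay between 9.69 and 10.75 with sorafenib and between 7.50 and 9.53 with F68/PG/PEG400, without overlap. The sunitinib arm was as wide: after temsirolimus it lay between 8.16 and 10.65 with sunitinib and between 6.77 and 10.31 with sterile water, and after TEM_vehicle between 9.63 and 10.65 with sunitinib and between 7.08 and 9.09 with sterile water. Over the 8 rats of each oral agent its medians were 9.60 with sorafenib and 8.36 with F68/PG/PEG400, and 9.80 with sunitinib and 7.84 with sterile water. The hour at which each rat was killed is not given in the sources used here, and its part in the difference was not tested. With the Dbp level of each rat added as a covariate, an alternative chosen after seeing the data, 20 genes passed, 10 in each direction, and 12 of them were among the 101. Dbp was itself among the 101, so the covariate shared part of its difference with sorafenib. The SE of Esm1 went from 0.155 without it to 0.266 with it. A call lost in this fit therefore does not show that the change went with Dbp. Of the 24 named genes tested so, Esm1, Angpt2, Il6r, Fam167b, Rprm and Adamts1 were still called and 18 were not. Among these the changes of the clock genes Per3 (0.38), Nr1d1 (0.61) and Tef (0.23) were smaller than without the covariate. So were those of Hey1 (0.55), Cyp26b1 (-0.66), Ankrd46 (0.44), Cyp4b1 (0.51) and Il1a (-0.69). Those of Egr1 (-1.48, adjusted p = 0.212), Lpin1 (1.46, adjusted p = 0.0816) and Tubb2a (-1.04, adjusted p = 0.0816) were among those that were larger.

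The promoters of Nr1d1 (RefSeq, GRCr8, chr10:84229455-84229704, minus strand) and Tef (chr7:115206577-115206826, plus strand) are shown as clock genes that rose and carry the E-box CACGTG, in capitals, in the 250 bases before their start.
Nr1d1: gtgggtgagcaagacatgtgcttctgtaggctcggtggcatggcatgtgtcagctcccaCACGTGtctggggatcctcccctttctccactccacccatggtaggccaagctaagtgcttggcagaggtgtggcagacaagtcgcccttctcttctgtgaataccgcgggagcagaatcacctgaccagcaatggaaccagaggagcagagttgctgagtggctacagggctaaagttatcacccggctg
Tef: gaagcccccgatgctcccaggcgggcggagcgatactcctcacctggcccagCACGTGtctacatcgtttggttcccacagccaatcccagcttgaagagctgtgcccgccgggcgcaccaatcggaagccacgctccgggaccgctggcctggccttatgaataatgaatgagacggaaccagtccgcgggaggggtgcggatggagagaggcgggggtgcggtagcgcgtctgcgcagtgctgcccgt
The E-box began at -191 in Nr1d1 and at -198 in Tef. It reads the same on both strands. It was found in 7 of 49 promoters of genes that rose (14.3%), which besides Nr1d1 and Tef were Cited2, Hycc2, Il6r, Ivns1abp and Klf15, in 2 of 35 of genes that fell (5.71%), and in 6.18% of all promoters. Per3 and Dbp were not among the 7, and a sequence was at hand for 49 of the 61 genes that rose. A match of letters is a description and not a site of binding.

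Sorafenib was also read separately by first agent. After temsirolimus 5 genes passed (0.0352%): Esm1 and Frk, a kinase of the Src family, rose (0.0141%) and Adamts1, Fam167b and Il1a fell (0.0211%). After TEM_vehicle 33 passed (0.232%), of which 21 rose (0.148%) and 12 fell (0.0844%). The test of the difference between these changes called no gene (limma; 605 had an unadjusted p under 0.05), so a weaker response after temsirolimus was not shown. Esm1 changed by 1.60 ± 0.219 after temsirolimus and by 2.11 ± 0.219 after TEM_vehicle. Angpt2 changed by 0.50 ± 0.132 and 1.28 ± 0.132, and Adamts1 by -1.01 ± 0.0794 and -0.43 ± 0.0794, in the same order. The last pair had the smallest interaction p, 0.000111 before and 0.974 after adjustment.

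The change at 6 h differed by gene in how long it lasted. At 1 h no gene passed (0 of 14218; 281 at an unadjusted p under 0.05), and at 24 h, in other rats, 49 passed (0.345%), of which 7 rose (0.0492%) and 42 fell (0.295%). The counts at 1 and 24 h came from 1 fit of 48 arrays with 1 variance for all times, and the 101 from 6 h alone. These counts are thus not alike, and 0 at 1 h does not show that no gene changed. Among the 101 genes 14 were called at 24 h too, and 74.3% had the same sign there, where 52.1% of all genes did. Esm1 changed by 0.52, 1.86 and 0.99 at 1, 6 and 24 h and Angpt2 by 0.27, 0.89 and 0.60. Egr1 changed by -0.27, -1.40 and -1.74, Adamts1 by -0.24, -0.72 and -0.79, Fam167b by -0.08, -0.98 and -0.92, and Lyve1 by 0.01, -0.50 and -0.74. These genes were called at both 6 and 24 h.

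The difference between the changes at 6 and 24 h passed for 7 genes (0.0492%). Without the 24 h liver array of rat 4M48, which the paper lists as a potential outlier, 6 genes passed. The count of genes called at 24 h alone was not repeated without it. Per3 (0.99 ± 0.148, adjusted p = 0.000617), Nr1d1 (1.04 ± 0.197, adjusted p = 0.0189) and Tef (0.60 ± 0.114, adjusted p = 0.0189) were above vehicle at 6 h and near it at 24 h, and Bmal1 (-0.83 ± 0.159, adjusted p = 0.0189) and Tubb2a (-0.70 ± 0.141, adjusted p = 0.0322) were below it at 6 h. Stab2 went the other way in time. Its changes were 0.03, -0.32 and -1.17 at 1, 6 and 24 h (0.85 ± 0.128 for 6 h minus 24 h, adjusted p = 0.000617). At 24 h 5 of the 28 endothelial markers fell (Stab2, Lyve1, Stab1, Gpr182 and Ptprb), where 0.295% of all genes did. Krt79, a keratin, was the other gene (0.58, adjusted p = 0.0322). Tubb2a lost this call in 18 of 54 settings (adjusted p up to 0.0898), which were the fit without array-set terms, where 4 genes passed, and the omission of any one of rats 2M15, 2M22, 8M87, 8M93, 8M94, 4M39, 4M45, 6M63 and 6M70 at 6 h and 2M17, 2M23, 8M95, 4M41, 4M47, 6M65, 6M66 and 6M71 at 24 h. This fit used 1 variance for all times. Dbp ranged over 6.21 to 6.62 in sorafenib rats and 6.18 to 6.74 in F68/PG/PEG400 rats at 1 h, a far smaller spread than at 6 h, and its standard error at 6 h was 0.187 in this fit, against 0.274 in the fit of 6 h alone.

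**Figure D4:**
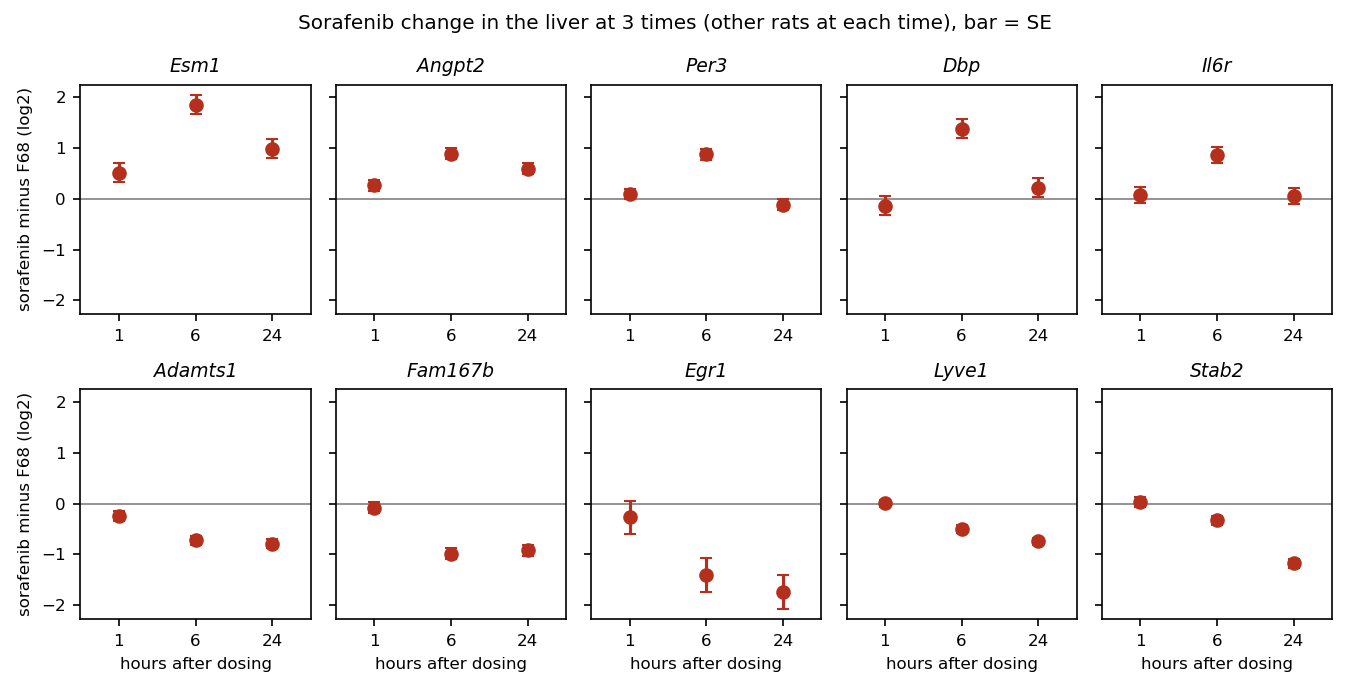
Sorafenib minus F68/PG/PEG400 difference in log2 signal of 10 genes (vertical axis) at 1, 6 and 24 h after dosing (horizontal axis), 8 sorafenib rats against 8 F68/PG/PEG400 rats at each time, with the SE of the fit over the 48 arrays. Per3, Dbp and Il6r differ at 6 h and lie near 0 at 1 and 24 h, Stab2 is lowest at 24 h, and Adamts1, Fam167b and Egr1 stay below 0 at 24 h.

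Sunitinib, an inhibitor that shares the VEGF, PDGF, KIT and FLT3 receptors with sorafenib but is not known as an inhibitor of RAF, was given at another dose and in another vehicle, so values stand side by side. Against sterile water it changed 3 genes at 6 h (0.0211%), of which 2 rose (0.0141%) and 1 fell (0.00703%), and all were among the 101. Esm1 changed by 1.86 with sorafenib and by 1.28 with sunitinib (adjusted p of the sunitinib change = 0.00121). Fam167b changed by -0.98 with sorafenib and by -0.65 with sunitinib (adjusted p = 0.00121). Arhgef26, an exchange factor for RhoG, changed by 0.54 with sorafenib and by 0.66 with sunitinib (adjusted p = 0.0431). Of the 101 genes 92.1% had the same sign with sunitinib, where 62.7% of all genes did. Dbp changed by 1.38 with sorafenib and 1.39 with sunitinib, Angpt2 by 0.89 and 0.39, Lpin1 by 1.06 and 0.14, and Ccl24 by -0.64 and 0.005, in the same order; of these the sunitinib changes did not pass. The difference between the drugs, each against its own vehicle, passed for no gene (limma; 654 at an unadjusted p under 0.05). The smallest adjusted p was 0.0655, for Hey2, a relative of Hey1, with a difference of 0.32, and the difference for Esm1 was 0.58 ± 0.252 (adjusted p = 1.00), which does not show that the drugs act alike.

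In the heart of the same rats sorafenib changed 441 genes (3.1%; 1.2% rose and 1.9% fell), 18 of which were among the 101 of the liver, and in bone marrow none (limma; 835 at an unadjusted p under 0.05). The bone marrow arrays included that of a rat given temsirolimus and then the oral vehicle, which the paper lists as a potential outlier. The bone marrow fit was not repeated without that array. The lack of called genes there does not show that no gene changed in bone marrow. The sign was shared by 75.2% of the 101 genes in the heart, where 60.6% of all genes shared it, and by 69.3% in bone marrow, where 56.3% did. Taken within each rat, the liver change differed from the heart change for 157 genes (1.1%), more positive in the liver for 99 (0.696%) and more negative for 58 (0.408%). Esm1 was higher by 1.86 in the liver and lower by 0.69 in the heart, where it did not pass (adjusted p = 0.109), a difference of 2.55 ± 0.258 (adjusted p = 0.00015). Bcl6b, an endothelial repressor, changed by 0.27 in the liver and -0.88 in the heart (difference 1.15, adjusted p = 5.19e-05). Il6r changed by 0.87 and -0.06 (difference 0.92, adjusted p = 0.000121). Egr1 changed by -1.40 in the liver and by -1.50 in the heart, where it passed too, and the difference was 0.09 ± 0.218 (adjusted p = 0.911).

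In other genes the change was larger in the heart. Fmo2, a flavin monooxygenase, changed by 0.12 in the liver and 1.28 in the heart, Fcmr, a receptor for IgM, by -0.03 and -0.86, and Mycn, a growth regulator of the MYC family, by 0.01 and -1.07. In the liver Fmo2 and Mycn had mean signals of 5.63 and 5.49, under the mean signal of 6 used as a filter. Their small liver changes therefore do not show that the liver did not respond. Other probe sets of Fmo2 changed by -0.003 and 0.31 in the liver. The heart arrays of 4 temsirolimus rats held liver transcripts: their hepatocyte markers averaged 10.26 and 10.65 (4M39 and 4M40) and 9.43 and 10.31 (6M63 and 6M64), with 5.68 to 6.76 in the others. Without those rats 17 genes differed between the tissues, and the 6 genes Esm1, Bcl6b, Il6r, Fcmr, Fmo2 and Mycn were still called (adjusted p between 0.00707 and 0.0179).

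**Figure D5:**
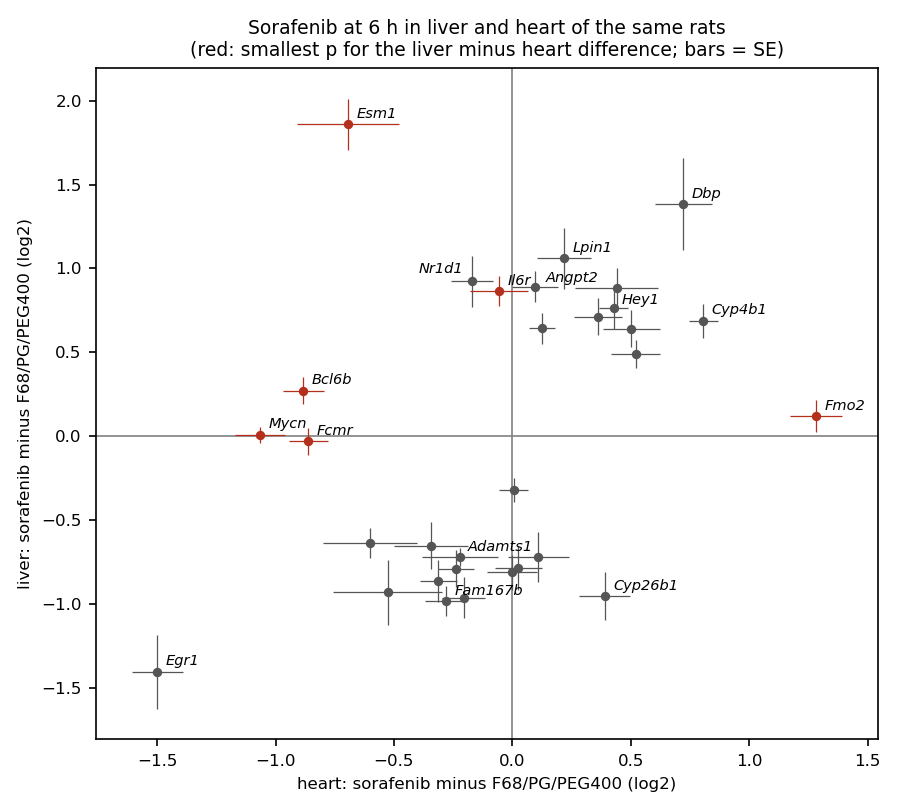
Sorafenib minus F68/PG/PEG400 difference in log2 signal in the liver (vertical axis) against the heart (horizontal axis) at 6 h in the same rats, 8 sorafenib rats against 8 F68/PG/PEG400 rats; each point is a gene named by the rules for this comparison or its differences, with its SE, and red points have the smallest p for the liver minus heart difference. Esm1 lies at 1.86 in the liver and -0.69 in the heart, and Egr1 at -1.40 and -1.50.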

How the data were processed

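Liver arrays of 16 rats at 6 h were compared (8 sorafenib, 8 F68/PG/PEG400), each group read from the labels. The authors deposited log2 RMA values of 31099 probe sets, which were used without a further transformation; no version of RMA is given in the sources used here. RMA draws the arrays to 1 common distribution, so values are relative. There is no read depth, and precision is limited by 8 rats per arm. Gene symbols came from the platform annotation: 21268 probe sets were listed (20832 with 1 symbol, 436 with several), 9831 were not, and for each of 14218 genes the probe set of highest mean over the 96 liver arrays was used.

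limma 3.58.1 in R 4.3.3 fitted a mean for each of the 4 groups and a term for the array set, and averaged the sorafenib change over both first agents. The array set parts the rats of a group into pairs by rat number, the lower numbers against the higher. Rats were dosed on different days, but the rats of each day are not given in the sources used here. Genes passed at an adjusted p under 0.05 (Benjamini-Hochberg over all genes). There were 7 such comparisons: sorafenib over both first agents, after each first agent, their interaction, 6 h minus 24 h (48 arrays), sorafenib minus sunitinib (32 arrays), and liver minus heart, in which the difference within a rat keeps the rat as a block. The method was tested on simulated data.

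Members and lists were chosen with earlier results of these data known. Named genes were the 12 largest rises and 12 largest falls among genes called with the same sign in each pair of first agent and array set, up to 4 genes of each list with at least 3 called, the target kinases and, for each difference, the 6 called genes with the smallest p. Sox18, Nrp2, Bmp2, Lyve1, Tnfrsf12a, Rb1, Nr1i2, Lrat, Tubb6, Usp2, Klf9, Per2, Jun, Lck, Scd2, Frk, Stab1, Gpr182, Ptprb, Krt79, Arhgef26 and Hey2 were named after their values were seen. Alternatives were a filter at a mean signal of 6, renewed quantile normalization, no array-set term, the most variable probe set, another variance model, all 96 liver arrays, an additive block and each rat left out. Promoters are RefSeq sequences of 250 bases before the start (GRCr8), searched for CArG boxes and the E-box CACGTG, both of which read alike on both strands. Genes or probe sets not listed here were not analysed.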

Additional observations from a re-analysis of the deposited data

Results flagged for a closer look

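Each named gene or marker list was tested within each group of 4 rats for a rat far from the others. Of 184 such sets of 4 values 12 held one, where chance gives about 1 in 20 (9.2). The same rats recur across the sets, which are thus not independent. Rat 4M46 (temsirolimus then F68/PG/PEG400) accounted for 5: Kupffer and macrophage markers at 11.43 (others 10.09, 10.14 and 10.24), T and NK cell markers at 7.52 (6.44, 6.54 and 6.59), Csf1r at 11.72 (9.81, 9.87 and 9.95), Plek at 9.44 (8.15, 8.24 and 8.36) and Ccnd2 at 9.19 (8.40, 8.44 and 8.51). Rat 6M70 (temsirolimus then sorafenib) was low in Ccnd2, at 7.46 (7.96, 7.99 and 8.04), and high in cholangiocyte markers, at 6.85 (6.74, 6.75 and 6.75), and B cell markers, at 7.20 (6.96, 6.99 and 7.00). Flt1 was low in rat 6M63 at 6.48 (6.64, 6.64 and 6.65) and in rat 2M15 at 6.29 (6.77, 6.77 and 6.85). Cyp4b1 was high in rat 4M40 at 9.06 (8.62, 8.63 and 8.66), and Ccl24 low in rat 2M16 at 6.97 (7.47, 7.49 and 7.57).

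The sorafenib change differed between 6 and 24 h, by the test of the difference itself, for Per3 (0.99), Stab2 (0.85), Tef (0.60), Nr1d1 (1.04), Bmal1 (-0.83) and Tubb2a (-0.70). It differed between liver and heart for Bcl6b (1.15), Il6r (0.92), Fcmr (0.83), Esm1 (2.55), Fmo2 (-1.16) and Mycn (1.07).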

How the results depend on the processing

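The 101 genes of the main comparison became 91 to 113 under the planned settings other than omission of a rat. The fit on all 96 liver arrays gave 91, of which 40 rose and 51 fell, and 55 were shared with the 101. Omission of 1 rat gave 57 to 169 genes: 57 without 6M70, 60 without 8M93, 64 without 4M45, 67 without 4M39 and 169 without 6M69. Without rat 4M46, 105 passed and 82 were shared. Omission of 1 rat gave 1 to 7 genes after temsirolimus (1 without 4M40, 4M45 or 6M70), 9 to 47 after TEM_vehicle (9 without 8M88, 10 without 8M93, 17 without 2M21 or 2M22), 0 to 1 for the interaction (1 without 2M16), 3 to 11 for 6 h minus 24 h (3 without 8M94, 4 without 2M17, 11 without 4M46), 0 to 1 for sorafenib minus sunitinib (1 without 2M21, 2M22, 8M93 or 4M39), and 77 to 304 for liver minus heart (77 without 4M40, 304 without 4M46). Other counts that moved were 20 with the Dbp covariate, 21 after temsirolimus with all 96 arrays, 4 for 6 h minus 24 h without array-set terms, 1 for sorafenib minus sunitinib under renewed quantile normalization and 1 under the other variance model, and 17 for liver minus heart without the rats whose hearts held liver transcripts. With no replicate block, liver and heart arrays taken as independent gave 153 genes, where the paired differences gave 157. For the named genes that were called, 986 of 1061 settings kept the call and its direction, 75 lost the call and none reversed. The 11 target kinases were called in none of 263 settings, and the sign of 6 of them turned in at least 1 setting. Dbp missed the threshold in 12 settings, Plek in 13 and Ccnd2 in 10, and Tubb2a lost its 6 h minus 24 h call in 18. The cause was not tested.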
